A study of Rattus norvegicus with 6 samples.

Results

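Synaptic vesicle release genes encode the proteins with which a nerve terminal stores transmitter in vesicles, docks and primes these vesicles at the active zone, fuses them when calcium enters, and takes the membrane back. A list of 38 such genes was compared in brain RNA of SPORTS and wild type rats, and the members were found by matching the transcript accession of each array probe to RefSeq genes. In this way 37 genes with 47 probes were found, out of 15168 genes with a probe and 30367 probes in all, and only synaptophysin (Syp) had no matched probe. The samples were total RNA of brain, with no region named in the labels, from 3 male rats of the SPORTS line and 3 male wild type rats. All 6 rats had a Wistar background, were 15 weeks old and had not exercised, and each gave 1 single-colour array. SPORTS is a hyperactive mutant rat line known for high voluntary wheel running. Its mutation is not given in the labels, so that the comparison is between lines and not between alleles of 1 gene.

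In release, syntaxin and SNAP-25 on the plasma membrane and a VAMP (synaptobrevin) on the vesicle form the SNARE complex that fuses the 2 membranes. Synaptotagmins on the vesicle bind calcium and trigger this step, complexins hold the assembled SNAREs ready, and RIM, Munc13, Bassoon and Piccolo organise and prime the site of release. Many of these proteins come as closely related forms that different neurons use to different degrees: synaptotagmin 1 and VAMP2 are the usual forms of the forebrain, while synaptotagmin 2 and VAMP1 are abundant in brainstem, spinal cord and fast-spiking interneurons.

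Most release genes differed little between the lines, and those that passed were more often lower in SPORTS. Signals are log2 values with 0 at the 75th percentile of the array, differences are SPORTS minus wild type, and the test was limma's moderated test with Benjamini-Hochberg adjustment over all 20657 tested probes. Probes that stood clear of background on every array of either group were tested. Of the 38 members, 36 genes could be tested, each read from its brightest tested probe. Of these, 3 were higher in SPORTS (Syt2, Vamp1 and Amph) and 8 were lower (Syt6, Stx1a, Syt10, Sypl2, Syt5, Rab3b, Syt1 and Vamp2), and 25 did not pass. Over all 11032 tested genes 24.3% were called, 12.9% higher and 11.4% lower. The members' shares were 30.6% called, 8.33% higher and 22.2% lower, a description of a list of chosen genes and not a test. With the median of each array subtracted in place of the 75th percentile, the split over all genes turned to 1047 higher and 1411 lower, against 1424 higher and 1257 lower, and 4 members were higher and 10 lower. The median difference of the members was -0.06, beside 0.0070 over all tested genes. The median absolute difference was 0.10 for the members and 0.11 for all genes, no called member reached a 2-fold difference, and the largest was 0.73. The 3 SPORTS and 3 wild type values did not overlap for 20 of the 36 genes, in 5 with SPORTS above and in 15 with SPORTS below, while 47.1% of all tested genes did not overlap, 24.8% with SPORTS above and 22.3% below.

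**Figure D1:**
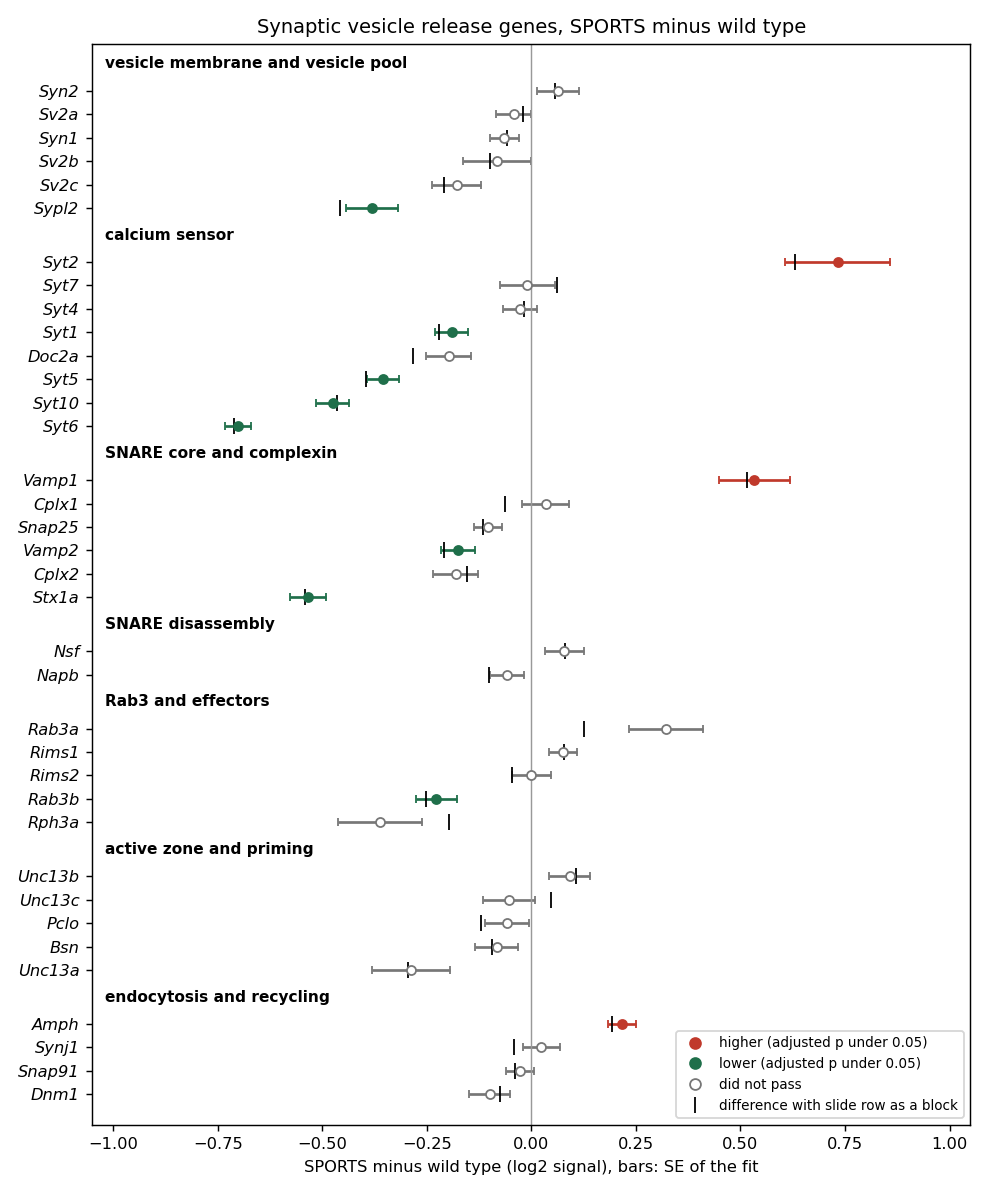
Difference SPORTS minus wild type (x axis, log2 signal) of the 36 tested release genes, grouped by role, with the SE of the fit as bars and the difference with slide row as a block as a black tick. The 3 genes that were higher and the 8 that were lower are filled, and open circles did not pass.

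Between 20325 and 22722 distinct probes were well above background on a SPORTS array and between 20626 and 23261 on a wild type array, and no spot was saturated. Precision is limited by the number of arrays. The 6 arrays lay on 1 slide, with wild type replicates 1 and 2 in slide row 1 and wild type replicate 3 and all SPORTS arrays in row 2. Differences within row 2 therefore rest on 1 wild type array, and they equal those of the fit with row as a block. With this block 8.34% of all tested genes were called, 4.03% higher and 4.31% lower, and of the members 0 were higher and 5 lower. SPORTS replicate 1 stood apart on cerebellar, hindbrain and choroid plexus markers, and the counts of these lists are given with and without it.

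Read from the brightest probe of each gene, the calcium sensors Syt2 and Syt6 had the largest differences among the members. A dimmer probe of Rims2, described with the Rab3 effectors, had a larger one (-1.08). Of 8 tested calcium sensor genes 1 was higher and 4 were lower, with a median of -0.19. Among all tested genes 12.9% were higher and 11.4% lower. Syt6, a synaptotagmin gene of restricted neuronal expression, had signals of -5.38, -5.38 and -5.36 in SPORTS, against -4.68, -4.67 and -4.66 in wild type. The groups were separated by far more than their spread, and Syt6 fell by 0.70 ± 0.03 (SE), 1.63-fold (limma adjusted p = 0.000167). Its signal was dim though above background on all 6 arrays, and with normexp background correction, which adds an offset, the difference was -0.28 (adjusted p = 0.00451).

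Syt10, a synaptotagmin gene described in mouse as an activity-regulated sensor for the release of IGF-1, had signals of -2.51, -2.53 and -2.59 in SPORTS and -2.03, -2.10 and -2.08 in wild type. Every SPORTS array was below every wild type array, and Syt10 fell by 0.47 ± 0.04 (SE; limma adjusted p = 0.0013). Syt5, which encodes a vesicle synaptotagmin, had 3.50, 3.44 and 3.45 in SPORTS, against 3.79, 3.81 and 3.86 in wild type. It fell by 0.35 ± 0.04 (SE), 1.28-fold (adjusted p = 0.0030). Syt6, Syt10 and Syt5 were called lower in each of the 17 other settings tried at the level of probes, slide row as a block included.

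Of the remaining sensors, Doc2a, which encodes a calcium-binding protein linked to spontaneous and asynchronous release, was lower on every SPORTS array and just missed the threshold (-0.20 ± 0.05, adjusted p = 0.0521, called in 6 of 17 other settings). Syt7, a sensor of slow release and facilitation, had a difference of -0.0093 ± 0.07 (adjusted p = 0.936). Syt4, an activity-regulated synaptotagmin gene, had 2 tested probes that are described with the other probe pairs.

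Syt1 and Syt2, the alternative fast calcium sensors of release, differed in opposite directions, and so did Vamp1 and Vamp2, the alternative vesicle SNAREs. Syt2 had signals of -1.48, -1.58 and -1.74 in SPORTS, against -2.59, -2.19 and -2.23 in wild type. All SPORTS arrays were above all wild type arrays, and Syt2 rose by 0.73 ± 0.13 (SE), 1.66-fold (limma adjusted p = 0.0125). Without SPORTS replicate 1 the difference was 0.67 (adjusted p = 0.0445). The call of Syt2 ended without SPORTS replicate 2 (0.72, adjusted p = 0.0573) and with slide row as a block (0.63, adjusted p = 0.117).

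Syt1 had signals of -0.30, -0.29 and -0.22 in SPORTS, against -0.08, -0.11 and -0.05 in wild type. The groups did not overlap, and Syt1 fell by 0.19 ± 0.04 (SE), 1.14-fold (limma adjusted p = 0.0231). The call ended with the block (-0.22, adjusted p = 0.0948), when dim probes were kept, and on leaving out SPORTS replicate 1 (-0.17), SPORTS replicate 2 (-0.18), wild type replicate 1 (-0.19) or wild type replicate 3 (-0.18).

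Vamp1 was read by 2 probes. The brighter gave 4.55, 4.52 and 4.42 in SPORTS, against 3.81, 4.11 and 3.98 in wild type, and rose by 0.53 ± 0.09 (SE), 1.45-fold (limma adjusted p = 0.0099). The other gave -0.78, -0.96 and -0.99 in SPORTS, against -1.33, -1.14 and -1.26 in wild type, and rose by 0.33 ± 0.08 (adjusted p = 0.0325). On both probes every SPORTS array was above every wild type array. With slide row as a block the differences were 0.52 and 0.35, and neither passed (adjusted p = 0.0901 and 0.159). Without SPORTS replicate 1 the brighter probe passed (0.50, adjusted p = 0.0390) and the other did not (0.27, adjusted p = 0.0669). The brighter probe was called in 16 of 17 other settings and the dimmer in 9. The call of the dimmer probe also ended in row 2 alone (0.35) and when dim probes were kept. On leaving out any 1 array other than wild type replicate 2 it ended as well (differences from 0.27 to 0.37). Vamp2 had 2.95, 2.90 and 2.91 in SPORTS, against 3.12, 3.04 and 3.13 in wild type. It fell by 0.17 ± 0.04 (SE), 1.13-fold (adjusted p = 0.0311), a call that ended with the block (-0.21, adjusted p = 0.107), when dim probes were kept, and on leaving out any 1 array other than wild type replicate 2 (differences -0.19, -0.16 and -0.17 without SPORTS replicates 1, 2 and 3, and -0.16 without wild type replicate 1 or 3).

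The annotated promoter windows of these 4 genes are shown because the 2 pairs of alternative forms moved apart. Each window runs from 250 bases before to 50 after the start that RefSeq gives for the gene, and capitals mark matches, on either strand, to 5 motifs. These are TATAAA (the TATA box), CCAAT (the CCAAT box), GGGCGG (the GC box), TGACGTCA (the cAMP response element) and CACGTG (an E box).
Syt2 (GRCr8 chr13:48736872-48737171, strand +): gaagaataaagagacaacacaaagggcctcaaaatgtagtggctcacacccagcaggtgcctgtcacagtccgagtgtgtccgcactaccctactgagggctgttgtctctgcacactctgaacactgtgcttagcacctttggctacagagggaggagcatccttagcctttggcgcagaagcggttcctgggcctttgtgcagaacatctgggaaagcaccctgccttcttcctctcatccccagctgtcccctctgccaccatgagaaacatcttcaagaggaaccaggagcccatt
Vamp1 (GRCr8 chr4:159698644-159698943, strand +): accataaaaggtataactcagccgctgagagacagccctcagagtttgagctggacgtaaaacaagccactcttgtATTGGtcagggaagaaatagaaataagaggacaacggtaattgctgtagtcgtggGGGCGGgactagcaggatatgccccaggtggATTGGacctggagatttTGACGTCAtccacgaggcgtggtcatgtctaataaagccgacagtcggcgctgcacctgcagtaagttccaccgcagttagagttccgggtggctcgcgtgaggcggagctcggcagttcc
Syt1 (GRCr8 chr7:46244164-46244463, strand -): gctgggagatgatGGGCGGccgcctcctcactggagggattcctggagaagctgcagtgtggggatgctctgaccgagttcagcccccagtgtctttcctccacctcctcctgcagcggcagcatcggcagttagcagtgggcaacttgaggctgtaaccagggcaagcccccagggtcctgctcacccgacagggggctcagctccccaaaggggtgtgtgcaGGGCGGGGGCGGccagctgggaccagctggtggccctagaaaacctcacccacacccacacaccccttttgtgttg
Vamp2 (GRCr8 chr10:54292539-54292838, strand +): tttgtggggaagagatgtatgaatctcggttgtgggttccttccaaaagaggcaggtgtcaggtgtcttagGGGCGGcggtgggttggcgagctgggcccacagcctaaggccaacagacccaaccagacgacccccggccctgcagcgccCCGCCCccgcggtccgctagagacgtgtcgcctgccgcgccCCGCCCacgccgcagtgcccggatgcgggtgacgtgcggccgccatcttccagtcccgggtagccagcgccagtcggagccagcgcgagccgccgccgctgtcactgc
The Syt2 window held none of these motifs. An atg in a ccaccatg context lies within its 50 bases after the annotated start. This start may therefore lie just before the coding sequence, and the window may not be the promoter of Syt2. No contrast with the other 3 windows is drawn from it. Whether the start that RefSeq gives is the one used in these brains was not tested, for Syt2 or the others. The Vamp1 window held 1 cAMP response element, 2 CCAAT matches and 1 GC box, and the windows of Syt1 and Vamp2 held 3 GC boxes each and no other match. Adjoining GC boxes were counted separately. Promoters of 31 of the 38 members were in the RefSeq table. A GC box was found in 22 of these 31 windows (71.0%), against 33.1% of 33469 promoters of all genes, and the cAMP response element in 2 of 31 (6.45%), against 1.83%. CCAAT was in 11 of 31 (35.5%), against 37.5% of all, CACGTG in 3 (9.68%), against 6.42%, and TATAAA in 0 of 31, against 14.2%. The members' windows had a median GC content of 63.7%, against 51.7% over all promoters. These are matches of letters and not sites shown to be bound. The 33469 promoters were not restricted to genes on the array or to genes above background in these brains. The shares are therefore no contrast between release genes and other genes expressed in brain.

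**Figure D2:**
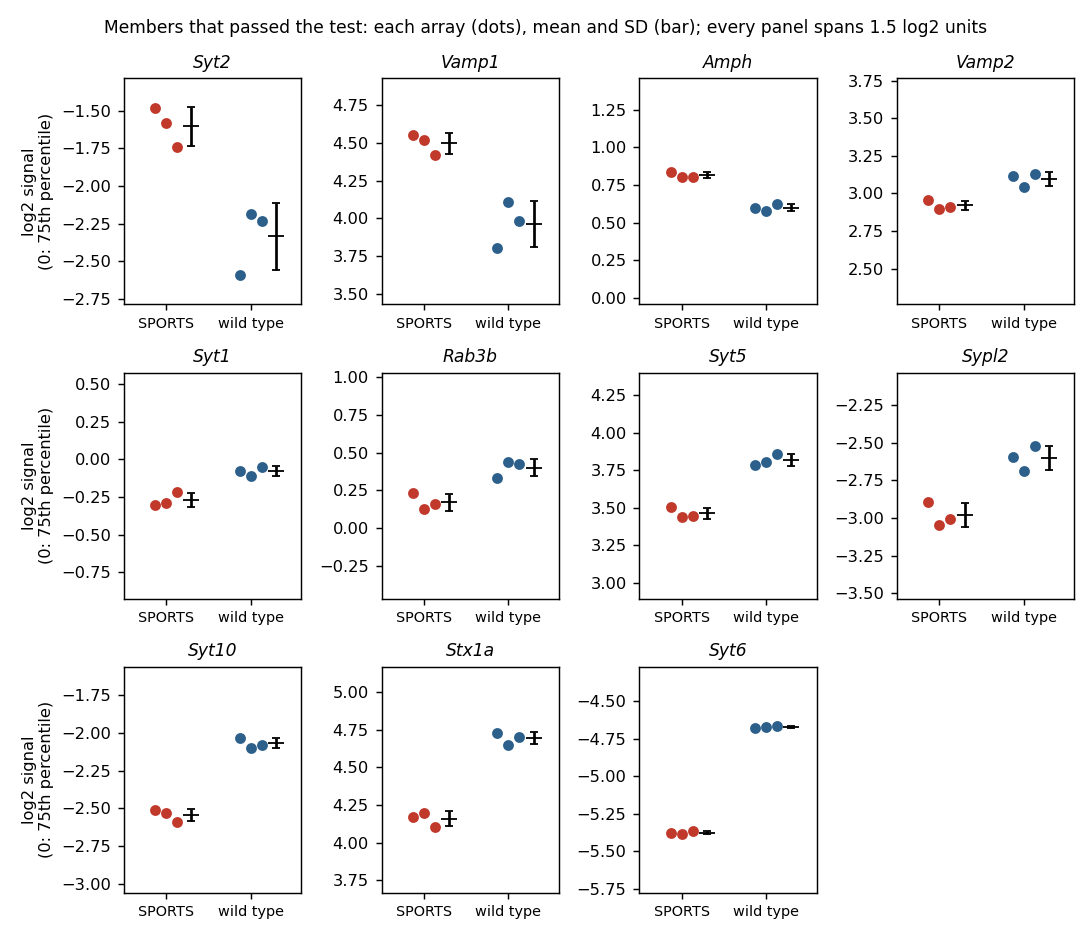
Signal (log2, 0 is the 75th percentile of the array) on each SPORTS and wild type array for the 11 release genes that passed the test, with mean and SD (n = 3 each) beside the dots. The groups do not overlap in any panel, and every panel spans the same range, so that the gap of Syt2 (0.73) can be set beside that of Vamp2 (-0.17).

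Among the other SNARE genes the plasma membrane syntaxin was lower. Of 6 tested genes of the SNARE core and complexins 1 was higher and 2 were lower (median -0.14). The shares over all tested genes were 12.9% higher and 11.4% lower. Stx1a, which encodes syntaxin 1A, had 4.17, 4.20 and 4.11 in SPORTS, against 4.73, 4.65 and 4.70 in wild type. The gap was far larger than the SD within either group (0.048 in SPORTS, 0.040 in wild type), and Stx1a fell by 0.53 ± 0.04 (SE), 1.45-fold (limma adjusted p = 0.00111). It was called in each of the 17 other settings, with differences from -0.57 to -0.51. Both probes of Snap25, the gene of the other plasma membrane SNARE, had SPORTS below wild type on all arrays, at differences of -0.10 ± 0.03 and -0.09 ± 0.03 that did not pass (adjusted p = 0.0841 and 0.111).

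Cplx2, a complexin gene of forebrain neurons, had a difference of -0.18 ± 0.05 and did not pass (adjusted p = 0.0647), while Cplx1 had 0.03 ± 0.06 (adjusted p = 0.711). The genes that take SNARE complexes apart were close to 0: the ATPase gene Nsf at 0.08 ± 0.05 (adjusted p = 0.297) and Napb, which encodes the adaptor beta-SNAP, at -0.06 ± 0.04 (adjusted p = 0.365).

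Of the vesicle membrane and vesicle pool genes, 1 of 6 tested members passed, against 24.3% of all tested genes. Sypl2, a synaptophysin-like gene best known from the triad junctions of skeletal muscle, had -2.89, -3.05 and -3.01 in SPORTS, against -2.59, -2.68 and -2.52 in wild type. Without overlap of the groups it fell by 0.38 ± 0.06 (SE), 1.30-fold (limma adjusted p = 0.0105), and it kept its call with slide row as a block (-0.46, adjusted p = 0.0423) but not in row 2 alone (adjusted p = 0.0652). Its other probe did not clear background on any array. Of the 10 skeletal muscle markers, 5 were tested, of which 1 was higher and 2 were lower. Their summed linear signal was 1.63 to 1.82 in SPORTS and 2.13 to 2.23 in wild type, in units of the array's 75th percentile, Myl1 was not above background on any array, and their part in the Sypl2 result was not tested.

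The synapsins, which tether vesicles in the reserve pool, and the SV2 proteins, vesicle glycoproteins that bind levetiracetam (SV2A) and botulinum toxin A, did not pass. Syn1 had -0.06 ± 0.03 (adjusted p = 0.255) and Syn2 0.06 ± 0.05 (adjusted p = 0.433). Syn3 was well above background on 2 of 3 SPORTS and 2 of 3 wild type arrays and was not tested, with signals from -5.48 to -5.27 in SPORTS and from -6.26 to -5.32 in wild type. Sv2a and Sv2b had -0.04 ± 0.04 and -0.08 ± 0.08 (adjusted p = 0.518 and 0.527). Sv2c, the form enriched in basal ganglia, was lower on all SPORTS arrays at -0.18 ± 0.06 and did not pass (adjusted p = 0.0878), while it did with quantile normalisation and with the median subtracted.

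Of the genes of the small GTPase Rab3 on vesicles and its effectors, 1 of 5 was called, against 24.3% of all tested genes. Rab3b had 0.23, 0.12 and 0.16 in SPORTS, against 0.34, 0.44 and 0.42 in wild type, and fell by 0.23 ± 0.05 (SE), 1.17-fold (limma adjusted p = 0.0247). All SPORTS values were below all wild type values. Its call ended with the block (-0.25, adjusted p = 0.115), when dim probes were kept, and on leaving out SPORTS replicate 2 (-0.20), SPORTS replicate 3 (-0.22), wild type replicate 2 (-0.21) or wild type replicate 3 (-0.21).

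Rab3a, the main Rab3 of synaptic vesicles, had 2.29, 2.28 and 2.24 in SPORTS, against 1.82, 1.88 and 2.14 in wild type. The wild type array of slide row 2 lay nearest to SPORTS. The difference was 0.32 ± 0.09 (SE; limma adjusted p = 0.0521) over all arrays, 0.42 without wild type replicate 3 (adjusted p = 0.00973) and 0.13 with slide row as a block (adjusted p = 0.233). Rph3a, which encodes the Rab3 effector rabphilin, had -1.49, -1.48 and -1.63 in SPORTS, against -1.20, -0.97 and -1.34 in wild type. Its difference, -0.36 ± 0.10 (adjusted p = 0.0539), was -0.20 with the block (adjusted p = 0.357). Rims1, a RIM gene of the active zone, had 0.08 ± 0.03 (adjusted p = 0.181).

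Rims2, the second RIM gene, gave different answers on its 2 probes, which carry the same transcript accession. Probe A_64_P082262 had -3.64, -3.42 and -3.57 in SPORTS, against -2.46, -2.53 and -2.40 in wild type, and fell by 1.08 ± 0.07 (SE), 2.12-fold (limma adjusted p = 0.000578), in every one of 17 other settings. Probe A_64_P261822, slightly brighter and so the one that represented the gene, had -2.54, -2.46 and -2.53 in SPORTS, against -2.49, -2.58 and -2.46 in wild type, a difference of 0.00022 ± 0.05 (adjusted p = 0.998). The log2 ratio of the first probe to the second was -1.10, -0.95 and -1.04 on SPORTS arrays, against 0.03, 0.05 and 0.07 on wild type arrays, a shift of -1.08. An exact two-sided permutation test of this shift gave p = 0.1, the smallest p that 3 against 3 arrays allow, and 0.3 after adjustment over the 9 genes with 2 tested probes. Where on the transcript the probes lie was not analysed here.

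The same comparison of probe pairs gave smaller shifts for the other 8 genes, between -0.21 and 0.02. Syt4 was called lower on probe A_43_P12638 (-2.23, -2.19 and -2.29 in SPORTS, against -2.01, -2.05 and -1.93 in wild type, a difference of -0.24 ± 0.05, limma adjusted p = 0.0205). That call held in 9 of 17 other settings. It ended with slide row as a block and in row 2 alone (-0.31 in both), and when dim probes were kept. It also ended on leaving out any array other than wild type replicate 2. The brighter Syt4 probe had 2.04, 1.94 and 1.95 in SPORTS, against 1.98, 2.03 and 1.99 in wild type, and did not pass (-0.03 ± 0.04, adjusted p = 0.691). The shift between the Syt4 probes was -0.21 (exact permutation p = 0.1, adjusted 0.3). The probes of Vamp1 shifted by -0.20 while both were called higher, and both probes of Snap25, Cplx1, Unc13c, Bsn, Pclo and Synj1 did not pass. At the level of probes, 4 of 45 tested member probes were higher and 10 were lower, over a background of 21.1% called, 11.1% higher and 10.1% lower among all tested probes.

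**Figure D3:**
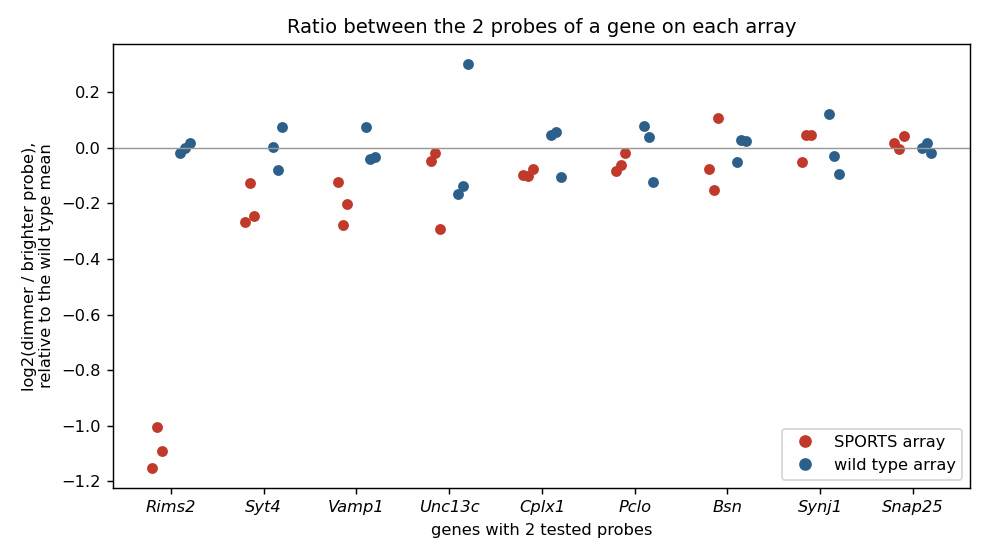
Log2 ratio of the dimmer to the brighter probe of each gene with 2 tested probes, on each SPORTS (red, left) and wild type (blue, right) array, set to 0 at the wild type mean of the gene. The SPORTS arrays lie about 1.08 below wild type for Rims2 and near or within the wild type spread for Snap25, Synj1 and Bsn.

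The active zone genes did not pass. Unc13a, which encodes the priming factor Munc13-1, had -1.89, -1.92 and -1.87 in SPORTS, against -1.42, -1.79 and -1.60 in wild type, and so a tight SPORTS group below a spread wild type group. Its difference was -0.29 ± 0.09 (SE; limma adjusted p = 0.0852), and -0.38 without wild type replicate 2, where it passed (adjusted p = 0.0259). Unc13b had 0.09 ± 0.05 and Unc13c, abundant in cerebellar granule cells, -0.05 ± 0.06 (adjusted p = 0.247 and 0.604). The scaffold genes Bsn and Pclo had -0.08 ± 0.05 and -0.06 ± 0.05 (adjusted p = 0.307 and 0.485).

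Of the 4 genes of vesicle retrieval 1 was called, against 24.3% of all tested genes. This was Amph, which encodes amphiphysin, an adaptor that brings dynamin to clathrin-coated pits. It had 0.84, 0.80 and 0.81 in SPORTS, against 0.60, 0.58 and 0.62 in wild type. The groups were tight and apart, and Amph rose by 0.22 ± 0.03 (SE), 1.16-fold (limma adjusted p = 0.0089). With slide row as a block the difference was 0.19 and did not pass (adjusted p = 0.0879). The dynamin gene Dnm1 had -0.10 ± 0.05, the clathrin assembly gene Snap91 -0.03 ± 0.03 and the phosphoinositide phosphatase gene Synj1 0.02 ± 0.04 (adjusted p = 0.213, 0.620 and 0.753).

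Beyond the members, 77 of 88 other listed genes of vesicle release and recycling were tested, of which 1 was higher and 12 were lower (median -0.05), over the background of 12.9% higher and 11.4% lower among all tested genes. The gene that rose was Slc17a6, the vesicular glutamate transporter VGLUT2 of thalamus and brainstem, with 1.89, 2.03 and 2.13 in SPORTS, against 0.82, 1.39 and 1.13 in wild type. Its difference was 0.90 ± 0.15 (SE; limma adjusted p = 0.0116), and 0.89 with slide row as a block, where it did not pass (adjusted p = 0.0964). Svop, a vesicle membrane protein gene related to SV2, had -0.62, -0.64 and -0.70 in SPORTS, against 0.64, 0.58 and 0.56 in wild type. It fell by 1.25 ± 0.04 (SE), 2.37-fold (adjusted p = 8.4e-05), and was called in each of the 17 other settings.

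The next largest falls were of Slc18a3, the vesicular acetylcholine transporter gene, by 0.50 ± 0.09 (SE; limma adjusted p = 0.0138), and Cplx3, a complexin gene also known from ribbon synapses, by 0.44 ± 0.06 (adjusted p = 0.00612). Lin7b, a presynaptic scaffold gene, fell by 0.39 ± 0.03, Syt12 by 0.38 ± 0.05 and Erc2, the gene of the active zone protein CAST, by 0.36 ± 0.09. Of these, Lin7b was also called with slide row as a block, and in all there were 0 higher and 4 lower genes of this list in that fit.

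Several of the genes above are unevenly spread over brain regions, and regional markers differed between the arrays as well. In bulk tissue, fewer cells of a type, less RNA per cell and a difference in the tissue taken cannot be told apart. The labels name no brain region. Counts of markers are to be read beside the 12.9% higher and 11.4% lower among all tested genes. Of 14 striatal projection neuron markers 13 were tested, and all 13 were lower in SPORTS (median -1.83). Their summed linear signal was 13.2 to 14.8 in SPORTS and 36.8 to 42.6 in wild type. Of 14 hindbrain and spinal markers 8 were tested, of which Tph2, Slc6a5 and Calca were higher (median 0.84). Without SPORTS replicate 1 the median was 0.22, with 3 markers higher and 1 lower. With slide row as a block none of the 8 was called (adjusted p = 0.0592 for Tph2, 0.0863 for Slc6a5 and 0.105 for Calca). Hoxb3 and Hoxc4 were not above background on any array, and the list's sum was 15.4 to 17.3 in SPORTS and 15.6 to 18.6 in wild type, led by 1 bright gene, Glra2, whose signal of 3.80 to 4.04 in SPORTS overlapped that of 3.91 to 4.18 in wild type. The mean log2 signal of the 8 was -2.73 to -1.90 in SPORTS and -3.08 to -3.05 in wild type.

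Of 15 cerebellar markers 12 were tested, of which 0 were higher and 1 was lower (median 0.33). Without SPORTS replicate 1, 2 were higher and 1 lower (median 0.08). Their signals had a mean log2 signal of -0.85 for SPORTS replicate 1, -1.81 and -1.71 for the other SPORTS arrays, and -1.86 to -1.74 in wild type. Of 12 cortex and hippocampus markers 8 were tested, with 0 higher and 1, Tbr1, lower (median -0.16). Pan-neuronal markers were above background on all arrays in 11 of 11 tested genes, with 2 higher and 2 lower (median -0.03) and a summed signal of 136 to 139 in SPORTS and 141 to 148 in wild type. Of the astrocyte markers 4 of 9 were higher and 0 lower (median 0.25), and of the oligodendrocyte markers 3 of 12 were higher and 0 lower (median 0.07). The background over all tested genes was 12.9% higher and 11.4% lower. Of the 10 microglia markers 0 were higher and 2, Tmem119 and Trem2, were lower, of the 7 tested endothelial markers 2 were higher and 0 lower, and none of the 8 choroid plexus markers was called in limma's fit (median -0.35, and 0.06 without SPORTS replicate 1, again with none called). With slide row as a block the 13 striatal markers were all still called lower, while most other marker calls ended. In that fit astrocyte markers were 1 higher and 0 lower, oligodendrocyte markers 1 and 0, pan-neuronal markers 0 and 1, microglia markers 0 and 1, endothelial markers 0 and 1, and skeletal muscle markers 1 and 1, and no cerebellar or cortex and hippocampus marker was called. The endothelial marker lower in that fit was Flt1, which did not pass without the block (-0.54, limma adjusted p = 0.383). Its difference with the block, -1.46, rests on wild type replicate 3 (-2.30, against -3.53 and -3.81 on wild type replicates 1 and 2). The part of the marker lists in the differences of Syt2, Vamp1, Slc17a6, Syt6, Syt10, Stx1a or Svop was not tested.

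**Figure D4:**
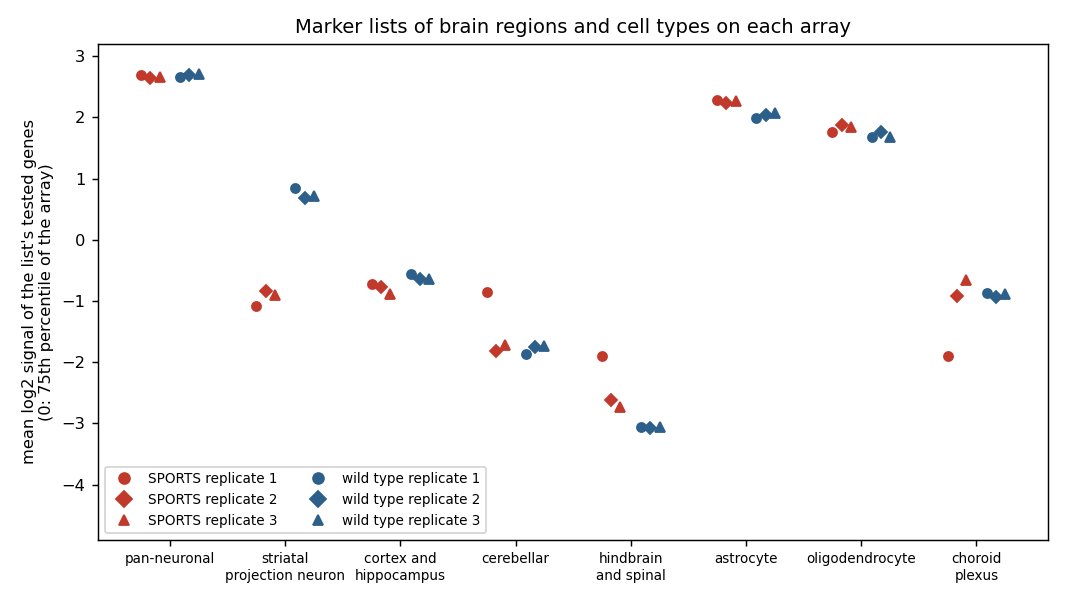
Mean log2 signal (0 is the 75th percentile of the array) of the tested genes of 8 marker lists on each SPORTS (red, left) and wild type (blue, right) array. Striatal markers lie between -1.08 and -0.84 in SPORTS and between 0.68 and 0.85 in wild type, and SPORTS replicate 1 (circle) is apart from the rest on the cerebellar, hindbrain and choroid plexus lists.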

How the data were processed

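RNA of 3 SPORTS and 3 wild type brains was measured on Agilent rat arrays with the dye Cy3. Per the file headers, the authors' intensity values come from Agilent Feature Extraction (10.10.1.1 per the submitters' processing notes), with background taken off and each array detrended, but arrays not scaled to each other. The series-wide deposited values are these intensity values times 1 factor per array (1.38 to 1.47), on a linear scale, with column medians of 394, 384 and 389 in SPORTS and 376, 376 and 382 in wild type, and the choice of factors is not stated. Spot flags are from the scanner files.

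From the log2 of the processed signal, each array's 75th percentile over its 58717 spots that were not controls was subtracted. The 3075 spot values with an outlier flag were dropped and a probe's spots averaged. Tested probes had a share over 0.5 of spots well above background on each array of SPORTS or of wild type, and a value on all arrays (20657). Symbols came from matching transcript accessions to RefSeq genes of assembly GRCr8 (18005 of 30367 probes). The probe design uses another build, so no probe positions are given. The fit was limma 3.58.1 in R 4.3.3, two-sided, threshold 0.05, and it was tested on simulated data.

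The members and lists were chosen with earlier results of these data known, so no count over a list is a test. All members were named, and of the other release genes the 6 called genes with the largest difference in each direction. Markers were named by size of difference, up to 3 a list, and Glra2, Myl1, Hoxb3, Hoxc4 and Flt1 after their values were seen. Alternatives were quantile normalisation, the median, normexp (offset 50) on median spot brightness, the deposited values, other filters, outlier spots kept, a trended robust variance, slide row as a block or alone, the mean of a gene's probes and each array left out. The 75th percentile over probe means was added after seeing the data. Promoters are RefSeq's, build GRCr8.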

Additional observations from a re-analysis of the deposited data

How the results depend on the processing

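Counts of calls moved with slide row, the filter, the variance model and single arrays, while the direction of every called member probe was the same in all 17 other settings. With slide row as a block, member genes were 0 higher and 5 lower, member probes 0 and 6, other release genes 0 and 4, and all genes 445 and 475. In slide row 2 alone, which holds 1 wild type array that was assumed to vary like the SPORTS arrays, member genes were 1 and 4, member probes 1 and 5, other release genes 1 and 4, and all genes 352 and 337. Without the filter on dim probes, all genes were 768 higher and 676 lower, with 5 member genes and 6 member probes lower. With a trended robust variance 13 member genes and 16 member probes were lower and 2 other release genes higher. With the mean of a gene's probes in place of the brightest probe, member genes were 4 higher and 12 lower, against 3 and 8. Other release genes were 1 and 14 in that setting, and all genes 1532 and 1395. Leaving out 1 array at a time gave 2 to 4 higher and 5 to 8 lower member genes, 2 to 4 higher and 6 to 10 lower member probes, 0 to 2 higher and 8 to 10 lower other release genes, and 798 to 1001 higher and 613 to 928 lower genes in all, the fewest without SPORTS replicate 2.

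Signs turned only for probes that did not pass. Rims2 probe A_64_P261822 had -0.017 with quantile normalisation, -0.040 with the median, -0.0015 with normexp, -0.046 with the row block and in row 2, -0.015 with the percentile over probes, and -0.032 to 0.024 leaving out 1 array. Cplx1 had -0.0055 (median), -0.062 (block and row 2) and -0.0068 to 0.083 (1 array left out). Synj1 had -0.016 (median), -0.0070 (normexp), -0.040 (block and row 2) and -0.0089 to 0.056 (1 array left out), and its other probe -0.0017 (median). Syt7 had 0.00035 (deposited table), 0.061 (block and row 2) and -0.044 to 0.055 (1 array left out), and Unc13c 0.048 (block and row 2). The cause was not tested. No paired analysis was possible because the labels' animal numbers share only 1 number between the groups. Precision is limited by 3 arrays a group, with 2 of 3 wild type arrays in another slide row, and for dim probes by their low signal over background.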
